A study of Arabidopsis thaliana with 18 samples.

Results

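Annotated alternative 3′ splice site junctions were followed across the genotypes of an Arabidopsis thaliana series on XCT (XAP5 CIRCADIAN TIMEKEEPER) and PRL1. A junction is an intron that reads were found to skip, and it is defined by a 5′ splice site at its start and a 3′ splice site at its end. Of 125738 annotated junctions of single genes, 5914 shared their 5′ site with another annotated junction of the same gene, and 5095 of these had a 3′ site that no other junction of the gene used. The junctions described here are the 2656 of them with at least 20 reads summed over the 18 libraries. They lay in 1737 genes at 1959 5′ sites. Just inside this minimum stood 20 junctions with exactly 20 reads, and just outside it 29 with 19 reads.

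RNA of whole seedlings was read by Iso-Seq, in which 1 long read can span all the junctions of a transcript. There were 6 genotypes with 3 independent biological replicates each. The wild type was Col-0. The xct mutants were xct-1 and xct-2, and the PRL1 mutant was prl1-2. In addition, xct-2 was studied with a transgene labelled XCT::XCT and xct-1 with one labelled XCT::SpXAP5. A deposited column header names the first of these XCT-YFP-HA. After stratification for 3 days, growth was at 22 °C under constant light (55 µmol per square metre and second) for all genotypes. Tissue taken at intervals of 2 h through 24 h was pooled, so each library averages over the day. One label gives day 11 and another an age of 10 days. The labels do not say what kind of allele each mutant carries, which promoter fragment the transgenes hold or whether a transgenic genotype is a single line. Depth ran from 459150 to 1046273 gene reads per library, and the 790 tested 5′ sites together held 48592 to 111634 junction reads per library, both lowest in a prl1-2 library. A library held 6.95 to 11.3 junction reads for each gene read, which varied as much within genotypes as between them. In Col-0, xct-1, xct-2 and prl1-2 the lowest library was replicate 2, but not in the transgenic genotypes. The first 3 exon bins of XCT held 0 reads in all 3 xct-2 libraries and 2 to 16 in Col-0, PRL1 had 0 reads in all 3 prl1-2 libraries and 10 to 33 in Col-0, and XCT had 284 to 654 reads in xct-2 XCT::XCT. Where a count is 0, up to 3 reads remain possible at the 95% level, from counting error alone.

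In the second catalytic step of splicing, the spliceosome joins the freed upstream exon to the downstream exon, just after an AG dinucleotide that ends the intron. The branch point, bound first by SF1, and the polypyrimidine tract, bound by U2AF, mark the region, and AGs that lie close together in it can compete. Where acceptors lie very close, the choice adds or removes a few bases at the start of the downstream exon, which changes the encoded protein by single residues or shifts the reading frame. XCT is the Arabidopsis member of the conserved XAP5 family, and PRL1 is a subunit of the MOS4-associated complex, the plant counterpart of the Prp19 complex that activates the spliceosome.

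Each member was compared with the junction that shared its 5′ site and had the most reads. The member or partner that gave the shorter intron was called the proximal site, because it lies nearer to the 5′ site, and the other the distal site. Use of a site was its count as a percent of the reads on all annotated junctions with that 5′ site. Use could be tested where the alternatives also had at least 20 reads, which held for 1487 members (55.99%) in 741 genes at 790 5′ sites. For 515 members the alternatives had 0 reads and for 654 they had 1 to 19. The 3 members with the fewest reads show this end of the range. BIP3 (an endoplasmic reticulum chaperone, AT1G09080) and AT1G26660 had 20 reads each and 0 on the alternative, and AT1G11592 had 20 reads against 37. Of the tested members, 782 were proximal and 705 distal, and 1394 lay in pairs with no annotated 5′ site between the acceptors, so that both acceptors open the same exon. At 661 of the 790 5′ sites there were 2 tested members that mirror each other, and at 18 sites there were 3, so results are counted by 5′ site as well as by member.

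The acceptors of a pair were usually close. The median distance was 6 bases (quartiles 3 and 22), the shortest was 2 and the longest 3083. A distance of 3 bases was the most frequent, with 238 of 790 5′ sites, followed by 6 bases with 72. These counts take 1 pair per 5′ site, while in the distance classes of called sites a site with members at several distances is counted in each class that it enters. In Col-0, over the 456 5′ sites with at least 10 reads in every library, the proximal site was used at a median of 65% (quartiles 23.7% and 92.1%) and led at 272 sites (59.6%). Pairs 3 bases apart were balanced most often, with 106 of 144 sites (73.6%) between 10% and 90%. Pairs 2 or 4 to 10 bases apart leaned to the proximal site, which led at 88 of 118 (74.6%) with a median use of 86.1%. Where the first transcript model of the gene holds only 1 of the acceptors, the acceptor of that model led at 330 of 431 sites (76.6%).

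Proximal sites were used less, and distal sites more, in both xct mutants. Mean use of the proximal site over the 456 sites was 57.9%, 58.0% and 57.9% in the 3 libraries of Col-0, 54.4%, 54.0% and 54.4% in xct-2, and 56.3%, 55.4% and 56.2% in xct-1. Every library of either mutant lay below every Col-0 library, and those of xct-2 lay below those of xct-1. The xct-2 XCT::XCT libraries, at 57.8%, 58.9% and 58.7%, fell on both sides of Col-0. The xct-1 XCT::SpXAP5 libraries, at 55.5%, 56.3% and 55.9%, overlapped those of xct-1. The prl1-2 libraries were the highest group on average, at 59.5%, 58.6% and 58.5%, and all 3 were above Col-0. No test was made on these means, since they average over the members.

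The size of the shift varied with the distance between the acceptors. At the 118 sites with acceptors 2 or 4 to 10 bases apart, mean proximal use was 71.4% ± 0.339 (SD, n = 3) in Col-0, 67.7% ± 0.378 in xct-1, against 63.8% ± 0.0714 in xct-2. At the 144 sites 3 bases apart it was 52.6% ± 0.405, 50.8% ± 0.631 and 49.6% ± 0.304 in the same order. At the 98 sites 11 to 40 bases apart it was 49.6% ± 0.503, 48.0% ± 0.380 and 46.7% ± 0.202. At the 96 sites over 40 bases apart the genotypes overlapped, with 58.0% ± 0.866 in Col-0 and 57.2% ± 0.887 in xct-2. In prl1-2 the mean at 3 bases was 55.3% ± 0.547, with every library above Col-0. At over 40 bases the prl1-2 libraries had 57.6%, 56.6% and 56.5%, of which the 2 lower ones lay under every Col-0 library.

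**Figure D1:**
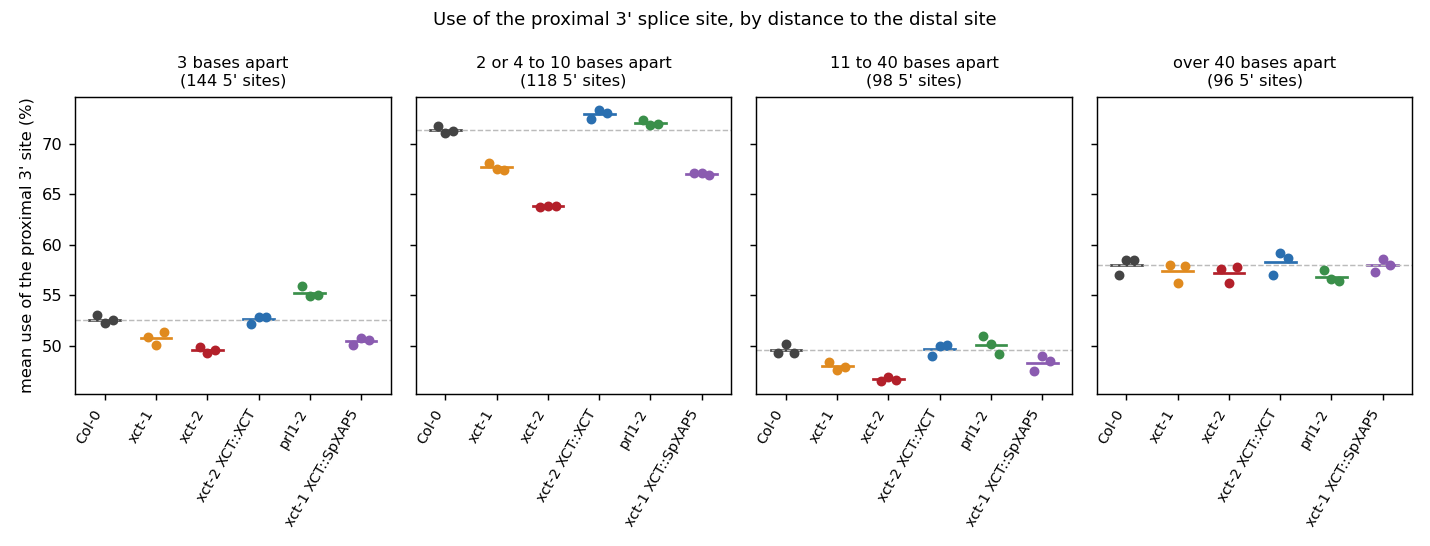
Mean use of the proximal 3′ site (percent of the annotated junction reads of its 5′ site) in each of 18 libraries, in 4 panels by the distance between the acceptors; points are libraries, bars the mean of 3 and the dashed line the Col-0 mean. The xct-2 libraries sit lowest in the first 3 panels, furthest at 2 or 4 to 10 bases (63.8% against 71.4%), and the prl1-2 libraries sit highest at 3 bases (55.3%).

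In xct-2 against Col-0, 224 of 1487 tested members at 117 5′ sites in 114 genes were called by edgeR's quasi-likelihood test with Benjamini-Hochberg adjustment over the 1624 junctions tested, of which 14.2% were called. Nearly all of those 1624 junctions are members, so this background is not independent of them. Of the other 137 junctions that share a 5′ site, whose 3′ site is shared too, 6 were called (4.38%). The change was toward the distal site at 105 of the 117 5′ sites (202 members, background 12.7%) and toward the proximal site at 12 (22 members, background 1.42%). The median shift at the called sites was -16.0 percentage points of proximal use (quartiles -25.7 and -7.83), against -1.90 over all tested members.

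The share of called sites varied with the distance. At 2 or 4 to 10 bases, 55 of 215 5′ sites were called (25.6%), 51 of them toward the distal site. At 11 to 40 bases 34 of 186 were called (18.3%), 28 toward the distal site, and at 3 bases 22 of 239 (9.21%), 20 toward the distal site. At over 40 bases 6 of 165 were called (3.64%), all toward the distal site. In narrower classes of distal members the share was 22.0% at 4 to 6 bases, 32.3% at 7 to 10, 27.5% at 11 to 15 and 16.2% at 16 to 20, so the limit at 10 bases does not mark a step. In Col-0 the proximal site led at 90 of the 117 called 5′ sites (76.9%) and at 368 of the 673 others (54.7%), which uses the same Col-0 libraries as the calls. Called sites had more reads, with a median of 1260 against 557, and the part of depth in this difference was not tested. At 26 of the 105 sites called toward the distal acceptor the lead passed from the proximal to the distal site, and at 20 the distal site already led in Col-0. The distance was divisible by 3, which keeps the reading frame, at 62.4% of the called sites and 59.3% of the others.

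**Figure D2:**
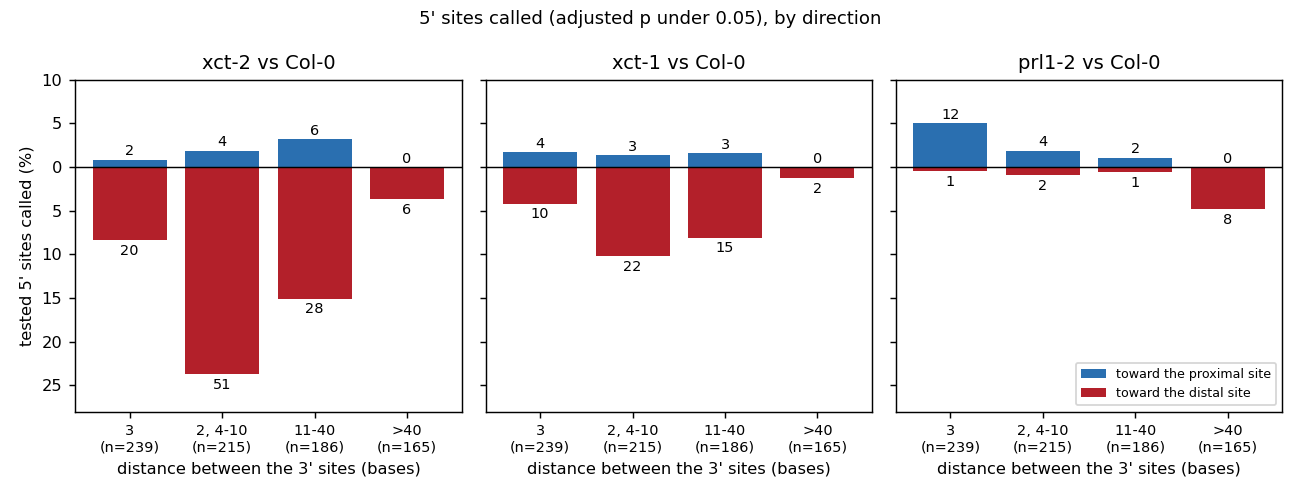
Percent of tested 5′ sites called in xct-2, xct-1 and prl1-2 against Col-0, by the distance between the acceptors; bars above 0 are sites that moved toward the proximal acceptor, bars below 0 toward the distal one, and the numbers are counts of 5′ sites. The bar of 51 sites toward the distal acceptor in xct-2 at 2 or 4 to 10 bases is the tallest, and in prl1-2 the 12 sites at 3 bases and the 8 at over 40 bases point in opposite directions.

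The largest falls of the proximal site in xct-2 left it with little or no use. In ALDH11A3 (AT2G24270, a cytosolic glyceraldehyde-3-phosphate dehydrogenase that makes NADPH), the proximal intron runs from 10329619 to 10329721 on the minus strand of chromosome 2 (TAIR10) and the distal acceptor lies 11 bases further. The proximal site held 88.9%, 89.5% and 84.6% of 27, 19 and 13 reads in Col-0, 0%, 12.5% and 0% of 7, 16 and 7 reads in xct-2, and 22.2%, 29.7% and 18.2% in xct-1. Both mutants lay below every Col-0 library, by -6.40 ± 0.891 (log2 odds ± SE, adjusted p = 3.96e-11) in xct-2 and -4.29 in xct-1 (adjusted p = 1.73e-08). Use was 82.1%, 71.4% and 76.0% in xct-2 XCT::XCT, against 27.8%, 33.3% and 0% in xct-1 XCT::SpXAP5. At MYB3R-3 (AT3G09370, a MYB repressor of cell cycle genes, acceptors 15 bases apart), the proximal site had none of the 19 reads of xct-2 and 80.0%, 77.8% and 100% in the Col-0 libraries with 5, 9 and 3 reads (adjusted p = 4.33e-05), so the call rests on few reads. AT2G39280 (acceptors 15 bases apart) fell from 50%, 52.6% and 60.9% in Col-0 to 7.14%, 0% and 7.14% in xct-2 (adjusted p = 1.07e-07) and to 20.0%, 12.5% and 8.33% in xct-1 (adjusted p = 0.000137). Col-0 did not overlap xct-2 or xct-1 at any of these 3 genes.

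Genes with an almost single acceptor in Col-0 became mixed in xct-2. D2HGDH (AT4G36400, the mitochondrial D-2-hydroxyglutarate dehydrogenase, acceptors 28 bases apart) used the proximal site at 98.1%, 97.4% and 100% in Col-0, at 82.6%, 79.4% and 75% in xct-1 and at 55.9%, 57.6% and 53.1% in xct-2. The 3 genotypes did not overlap, with adjusted p = 5.13e-16 for xct-2 and 6.69e-05 for xct-1 against Col-0. PRMT4A (AT5G49020, a protein arginine methyltransferase, acceptors 6 bases apart) fell from 88.7%, 97.2% and 92.3% in Col-0 to 69.0%, 76.2% and 66.7% in xct-1 and to 41.9%, 44.1% and 61.9% in xct-2. The same order without overlap was seen there, with adjusted p = 1.86e-10 for xct-2 and 0.011 for xct-1. The other falls among the 8 largest, ranked by percentage points, were at AT2G01100 (acceptors 34 bases apart, 87.2% ± 15.5 in Col-0 and 33.5% ± 29.9 in xct-2), AT1G01260 (7 bases, 93.1% ± 6.36 and 45.8% ± 16.8) and AT2G32760 (22 bases). AT2G32760 had 14 reads in the 3 Col-0 libraries together and fell from 92.6% ± 12.8 to 2.22% ± 3.85 in xct-2 and 3.03% ± 5.25 in xct-1.

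The 12 sites called toward the proximal acceptor in xct-2 included deeply read ones. At 1 of them, AT2G43160, the called junction is a minor distal one of 3 acceptors, which fell from 3.31% to 0.968%, while the most proximal acceptor went from 52.2% to 49.4% (adjusted p = 0.483), so this site did not gain proximal use. CAC3 (AT2G38040, the alpha subunit of plastid acetyl-CoA carboxylase, which starts fatty acid synthesis) has acceptors 8 bases apart, with the proximal intron from 15920772 to 15920847 on the plus strand of chromosome 2. Its proximal site was used at 19.8%, 20.2% and 20.5% in Col-0, 34.7%, 37.5% and 36.7% in xct-2 and 32.8%, 35.6% and 33.5% in xct-1, with 514 to 829 reads per library in these groups. Neither mutant overlapped Col-0, and the rise was 1.17 ± 0.115 in xct-2 (log2 odds ± SE, adjusted p = 9.42e-22) and 1.02 in xct-1 (adjusted p = 1.28e-16). At emb1138 (AT5G26742, the chloroplast DEAD-box RNA helicase RH3, acceptors 3 bases apart) the proximal site rose from 77.6%, 77.5% and 78.6% to 83.5%, 84.1% and 84.6% in xct-2 (adjusted p = 1.07e-07). SSP4 (AT5G46410, an SCP1-like phosphatase, 9 bases) rose from 7.28% ± 4.29 to 26.7% ± 8.69 (adjusted p = 0.000882). Among the 8 largest rises were also AT1G14270, AT4G02880, ARF1, EDR2 and AT5G47690, with adjusted p from 0.013 to 0.04. ARF1 (AT1G59750, an auxin response factor, 9 bases) went from 81.2% ± 5.62 to 90.6% ± 2.11. DESeq2 called 131 of the 224 members. Leaving out 1 library ended the xct-2 call at AT1G14270 and AT2G01100 (both without xct-2 replicate 2, adjusted p = 0.245 and 0.299 by edgeR), and at least 4 different libraries each ended those at ARF1, AT4G02880, EDR2 and AT5G47690.

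In xct-1 against Col-0, 115 of 1487 tested members at 59 5′ sites were called, where 7.14% of all tested junctions were called. The change was toward the distal site at 49 5′ sites (96 members, background 5.97%) and toward the proximal site at 10 (19 members, background 1.17%), with a median shift of -13.5 points at the called sites. By distance, 25 of 215 sites were called at 2 or 4 to 10 bases, 18 of 186 at 11 to 40, 14 of 239 at 3 and 2 of 165 at over 40. The comparison shares its Col-0 libraries with that of xct-2. ORP2B (AT4G12460, an oxysterol-binding protein homologue, 7 bases) used the proximal site at 85.7%, 80.6% and 75% in Col-0, 48.5%, 54.5% and 45.5% in xct-1 (adjusted p = 0.000765) and 54.2%, 47.6% and 40% in xct-2 (adjusted p = 0.000254). The mutants overlapped each other and lay below Col-0. AT4G16360 (3 bases) fell from 90.4% ± 3.28 to 64.2% ± 2.2 in xct-1 and to 68.8% ± 7.14 in xct-2, and GLT1 (AT5G53460, NADH-dependent glutamate synthase, 11 bases) from 54.7% ± 4.08 to 28.9% ± 6.07 and 34.4% ± 9.54. Rises in xct-1 that ranked among its 8 largest and not those of xct-2 were at NHX8 (17.8% ± 16.8 to 77.4% ± 21.5, on 18 Col-0 reads), PGR5-LIKE A (a protein of cyclic electron flow in photosynthesis, 91.2% ± 3.49 to 95.9% ± 0.717) and AT2G43160, where a minor distal site fell from 3.31% ± 0.531 to 0.863% ± 0.791. DESeq2 called 49 members, and without Col-0 replicate 1 edgeR called 68. The xct-1 calls at NHX8, PGR5-LIKE A, AT2G43160, MYB3R-3, AT2G01100, SSP4, PRMT4A, AT5G47690 and GLT1 were each lost without some single library (highest edgeR adjusted p = 0.313, at PGR5-LIKE A). The xct-2 calls at AT4G16360 and GLT1 were each lost without either of 2 libraries (highest edgeR adjusted p = 0.111 and 0.0686).

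The 2 xct mutants differed from each other at 33 of 1487 tested members at 18 5′ sites, where 2.16% of all tested junctions were called. At 17 of the 18 sites xct-2 lay further toward the distal acceptor (31 members, background 2.03%) and at 1 toward the proximal one (2 members, background 0.123%), and 11 of the 18 had acceptors 2 or 4 to 10 bases apart. AT5G60170, with acceptors 6 bases apart (proximal intron from 24229556 to 24229699 on the plus strand of chromosome 5), used the proximal site at 70.2%, 67.5% and 66.5% in Col-0, 54.3%, 51.7% and 47.6% in xct-1, against 33.9%, 36.2% and 36.5% in xct-2. Its 3 genotypes did not overlap, and xct-2 differed from xct-1 by -0.91 in log2 odds (adjusted p = 1.68e-06). GC5 (AT1G79830, a golgin of the Golgi apparatus, 6 bases) showed the same order, with 58.4% ± 0.903, 44.9% ± 3.03 and 31.2% ± 1.75 (adjusted p = 0.00151 between the mutants). At AT5G26850 (8 bases) the distal site rose from 33.1% ± 3.09 to 49.4% ± 0.465 and 62.8% ± 3.61 in that order (adjusted p = 0.000736). SHM3 (AT4G32520, a serine hydroxymethyltransferase, 6 bases) had 97.2% ± 0.469, 85.9% ± 7.43 and 69.3% ± 8.52, and iqd2 (AT5G03040, a calmodulin-binding protein, 10 bases) 98.3% ± 2.89, 86.0% ± 5.78 and 68.4% ± 4.75. D2HGDH and PRMT4A, given above, differed between the mutants as well (adjusted p = 0.00775 and 0.0151). TRM9 (AT1G31600, a tRNA methyltransferase homologue, 6 bases) had 83.0% ± 3.96 in Col-0, 86.5% ± 5.94 in xct-1 (adjusted p = 0.926 against Col-0) and 56.4% ± 9.94 in xct-2 (adjusted p = 4.33e-05). DESeq2 called 6 of the 33 members, and without xct-2 replicate 2 edgeR called 20. AT5G60170, GC5 and AT5G26850 stayed called without any single library, and the differences between the mutants at TRM9, D2HGDH, PRMT4A, iqd2 and SHM3 did not.

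In xct-2 XCT::XCT, mean use of these sites was close to that in Col-0. Against its xct-2 parent, 240 of 1487 tested members at 122 5′ sites were called in the XCT::XCT genotype, where 15% of all tested junctions were called. The change was toward the proximal acceptor at 116 of these sites (228 members, background 14.2%) and toward the distal one at the rest (12 members, background 0.739%). This contrast shares the xct-2 libraries with the one above. Against Col-0, xct-2 XCT::XCT had 6 members called at 3 5′ sites, where 0.369% of all tested junctions were called, with 4 members toward the proximal site (background 0.246%) and 2 toward the distal one (background 0.123%). Over the 83 well-read sites called toward the distal acceptor in xct-2, proximal use was 71.6%, 72.3% and 72.7% in xct-2 XCT::XCT. The Col-0 libraries, which took part in choosing these sites, had 72.1%, 71.4% and 71.6%, and the xct-2 libraries 55.7%, 54.9% and 55.4%. The xct-1 libraries, which entered the fit and the read minimums but not that contrast, had 63.0%, 61.6% and 61.9%, between Col-0 and xct-2. The prl1-2 libraries had 71.8%, 71.9% and 71.6%, within the range of Col-0.

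The 3 sites that still differed were AT2G32760, CAC3 and LUH. At AT2G32760 the proximal site stayed at 13.6%, 16.7% and 16.7% in xct-2 XCT::XCT (adjusted p = 0.0162 against Col-0), on 40 reads. CAC3 stood at 23.5%, 26.6% and 26.7%, between Col-0 and xct-2 and overlapping neither (adjusted p = 0.0333 against Col-0 and 1.64e-09 against xct-2). LUH (AT2G32700, a LEUNIG-type transcriptional co-repressor, 6 bases) was at 55.7%, 52.6% and 56.7% against 44.2%, 48.6% and 43.1% in Col-0 (adjusted p = 0.0162) and 46.4%, 45.9% and 46.3% in xct-2, so it did not follow the mutant. MPK2 (AT1G59580, a MAP kinase, 7 bases) was among the 8 largest rises over xct-2, from 53.3% ± 5.77 to 98.2% ± 3.04. AT1G49870 and AT3G51620 fell relative to xct-2 without a call in xct-2 against Col-0, from 29.1% ± 7.16 to 12.2% ± 5.65 (adjusted p = 0.0127, lost without either of 2 libraries, highest edgeR adjusted p = 0.137) and from 64.2% ± 4.18 to 50.3% ± 4.40 (adjusted p = 0.001). By DESeq2, 154 members were called in xct-2 XCT::XCT over xct-2, and 0 over Col-0, where edgeR's unadjusted p was under 0.05 for 97 members. Each of the 3 sites that differed from Col-0 lost its call when any 1 of 4 or 5 libraries was left out (highest edgeR adjusted p = 0.222 at LUH, 0.21 at AT2G32760 and 0.412 at CAC3).

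**Figure D3:**
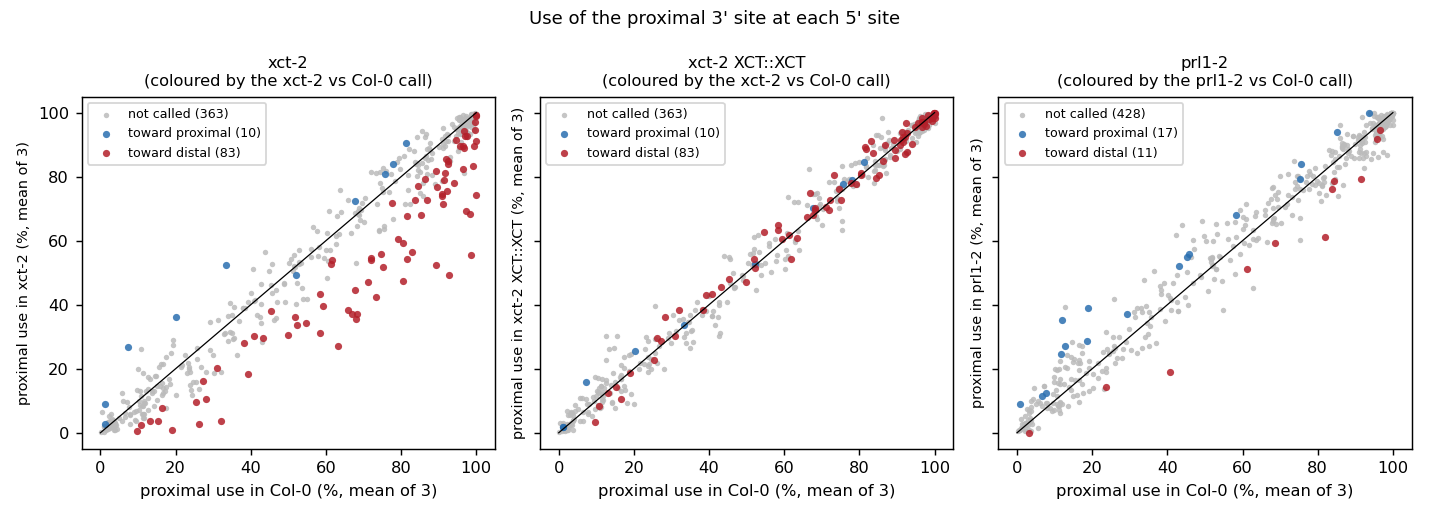
Mean proximal use (percent, mean of 3 libraries) at each of the 456 well-read 5′ sites in xct-2, xct-2 XCT::XCT and prl1-2, against the mean in Col-0; colours give the call of xct-2 against Col-0 in the first 2 panels and of prl1-2 against Col-0 in the third, and the line marks equal use. The 83 sites called toward the distal acceptor in xct-2 lie below the line in the first panel and around it in the second.

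In xct-1 XCT::SpXAP5 no member was called against xct-1 by edgeR's test (0 of 1487, background 0%), and 65 members had an unadjusted p under 0.05. DESeq2 called 0 as well. Over the 38 well-read sites called toward the distal acceptor in xct-1, proximal use was 47.9%, 48.9% and 50.7% in xct-1 XCT::SpXAP5, against 49.7%, 47.5% and 47.0% in the xct-1 libraries, which took part in the choice. The same sites stood at 62.8% ± 0.548 in Col-0. A p that misses the threshold does not show that the 2 genotypes are alike.

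**Figure D4:**
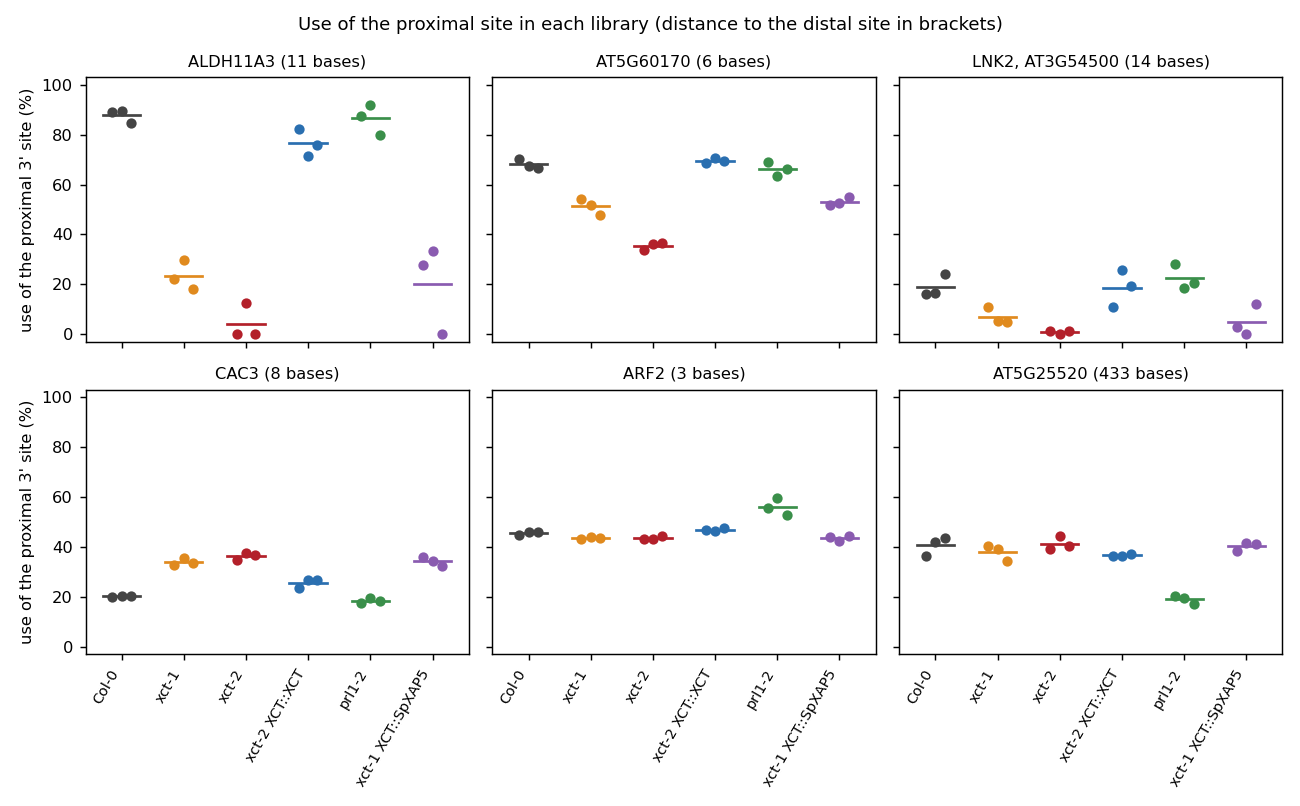
Use of the proximal 3′ site (percent) in each of the 18 libraries for 6 genes, with the distance to the distal acceptor in brackets; points are libraries and bars the mean of 3. ALDH11A3 and AT5G60170 step down from Col-0 to xct-1 to xct-2, CAC3 is higher in both mutants than in Col-0, LNK2 is near 0 in xct-2, and in prl1-2 ARF2 is higher (55.7%, 59.5% and 52.6%) and AT5G25520 lower (20.3%, 19.4% and 17.1%) than in every other library.

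In prl1-2 against Col-0, 56 of 1487 tested members at 30 5′ sites were called, where 3.69% of all tested junctions were called. The change was toward the proximal site at 18 sites (35 members, background 2.22%) and toward the distal site at 12 (21 members, background 1.48%), and it divided by distance. At 3 bases 13 of 239 sites were called (5.44%), 12 of them toward the proximal acceptor. At over 40 bases 8 of 165 were called (4.85%), all toward the distal one. Of the 13 members called at over 40 bases, 10 lay in pairs with no annotated 5′ site between the acceptors. In the other pairs the acceptors need not open the same exon, so part of this class may be exon use. Called sites had a median of 4878 reads against 638 at the others, and prl1-2 had the shallowest libraries, whose part in the smaller count was not tested. Over the 17 well-read sites called toward the proximal acceptor, the xct-2 libraries had 36.2%, 36.8% and 36.5% proximal use. Col-0 had 37.0%, 38.9% and 37.1% there, and prl1-2 had 49.1%, 46.7% and 47.7%. The xct-2 libraries entered the fit and the read minimums, but not this contrast.

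ARF2 (AT5G62000, an auxin response factor that represses growth) was the most deeply read of the 8 largest rises in prl1-2. Its proximal intron runs from 24914721 to 24914813 on the plus strand of chromosome 5, and the distal acceptor lies 3 bases further. The proximal site was used at 44.9%, 45.9% and 46.1% in Col-0, 55.7%, 59.5% and 52.6% in prl1-2, and 43.2%, 43.3% and 44.5% in xct-2. The prl1-2 libraries were above all others, by 0.57 ± 0.0919 over Col-0 (log2 odds ± SE, adjusted p = 1.58e-07), and xct-2 was not called (adjusted p = 0.509). GPS1 (AT2G34630, a prenyl diphosphate synthase, 3 bases) had the largest rise, from 10.0%, 11.8% and 0% of 40, 34 and 8 reads to 60.0%, 36.6% and 35.7% of 10, 41 and 14 (adjusted p = 0.00289). AT4G24610 was called at 2 of its introns, with acceptors 3 and 12 bases apart, where the proximal site rose from 12.7% ± 2.37 to 27.2% ± 4.52 and from 18.8% ± 3.69 to 39.1% ± 5.12. AT1G80810 (12.0% ± 2.83 to 35.1% ± 13.5), AT1G16180 (11.7% ± 3.98 to 24.7% ± 4.48) and AT1G63640 (18.6% ± 2.44 to 28.5% ± 7.20), all with acceptors 3 bases apart, rose as well. LUH rose at its pair 6 bases apart, named above, from 45.3% ± 2.90 to 55.1% ± 3.90 (adjusted p = 0.00894).

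Toward the distal acceptor, AT5G25520 had the lowest adjusted p of the 8 largest falls in prl1-2. Its acceptors lie 433 bases apart, with the proximal intron from 8887957 to 8888097 on the plus strand of chromosome 5. The proximal site was used at 36.5%, 42.1% and 43.7% in Col-0, 20.3%, 19.4% and 17.1% in prl1-2 and 39.3%, 44.3% and 40.2% in xct-2. The prl1-2 libraries lay below those of every other genotype, by -1.58 ± 0.227 from Col-0 (adjusted p = 3.58e-09). AT5G06120 (555 bases) fell from 81.9% ± 2.63 to 61.1% ± 5.91, and MEE5 (AT1G06220, the U5 snRNP GTPase homologous to yeast Snu114, 215 bases) from 23.7% ± 3.32 to 14.3% ± 2.44. At AT5G25520, AT5G06120 and MEE5 only the proximal member was called, and none of the 30 distal members tested at 101 bases or more was. Their acceptors were not shown to open the same exon, so these changes may be of exon use. ORG1 (AT5G53450, 79 bases) fell from 83.8% ± 0.888 to 76.2% ± 2.56. Among close pairs, AT2G20050 (9 bases) fell from 91.5% ± 0.422 to 79.4% ± 5.60 in prl1-2 (adjusted p = 2.39e-06) and to 79.1% ± 2.00 in xct-2 (adjusted p = 1.07e-07). FAB1A (AT4G33240, a phosphatidylinositol-3-phosphate 5-kinase, 3 bases) fell from 61.3% ± 0.739 to 51.3% ± 1.10 in prl1-2 and to 52.7% ± 2.55 in xct-2, where the call was lost without either of 2 libraries (highest edgeR adjusted p = 0.111). AT1G23230 (12 bases) fell from 68.7% ± 1.95 to 59.4% ± 2.53 (adjusted p = 0.0489). AT5G17010 (5 bases) fell from 25.4% ± 4.84 to 0% of 36 reads, with 1.85% ± 3.21 in xct-1 (adjusted p = 0.0147, lost without any 1 of 3 libraries, highest edgeR adjusted p = 0.103). DESeq2 called 20 of the 56 members, and edgeR called 27 without Col-0 replicate 3 and 30 without prl1-2 replicate 3. ARF2, AT4G24610, GPS1, AT5G25520, MEE5 and AT2G20050 stayed called in prl1-2 without any single library, while the other genes named for prl1-2 did not (highest edgeR adjusted p = 0.363, at AT1G23230).

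At the 5 tested sites with the most reads, changes were small or absent from the calls. GLDP1 (AT4G33010, the P protein of glycine decarboxylase in photorespiration) had 133341 reads on its proximal site, which took 99.8% ± 0.0759 in Col-0 and 99.9% in the other genotypes, and AT3G60750 (a transketolase) had 99.8% ± 0.0829 in Col-0. At PWD (AT5G26570, phosphoglucan water dikinase of starch breakdown, 11 bases), the proximal site had 31248 reads and the distal site 78. Proximal use there was 99.9%, 100% and 99.9% in Col-0, 99.4%, 98.8% and 99.5% in xct-2 and 99.6%, 99.8% and 99.7% in xct-1. The fall was called in both mutants (adjusted p = 9.01e-06 and 0.0476), at less than 1 percentage point, and the xct-1 call was lost without any 1 of the 6 libraries (highest edgeR adjusted p = 0.156). AT5G45510 (83 bases) stood at 13.8% ± 1.57 in Col-0 and was called in 1 of the 7 contrasts, that of xct-2 XCT::XCT over xct-2 (adjusted p = 0.0192), and lost that call without any 1 of 3 libraries (highest edgeR adjusted p = 0.146). AT5G47690 (a PDS5-type cohesin cofactor) has 2 such introns with acceptors 3 bases apart, of which 1 rose in xct-2 (67.8% ± 1.27 to 72.4% ± 1.14, adjusted p = 0.032) and the other in prl1-2 (75.3% ± 0.520 to 79.4% ± 1.37, adjusted p = 0.0107).

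Among genes of the core clock, 15 members at 8 5′ sites of 7 genes were tested. In xct-2 and in xct-1, 1 of these sites was called, and in prl1-2 none, where 14.2%, 7.14% and 3.69% of all tested junctions were called, so the counts are near the background. It lies in LNK2 (AT3G54500), a co-activator of evening clock genes that acts with RVE proteins, where the proximal intron runs from 20177705 to 20177934 on the minus strand of chromosome 3 and the distal acceptor lies 14 bases further. The minor proximal site took 16.3%, 16.7% and 24.2% of the reads in Col-0, 10.9%, 5.30% and 5.10% in xct-1, against 1.37%, 0% and 1.32% in xct-2. Col-0, xct-1 and xct-2 did not overlap, with -4.53 ± 0.62 in xct-2 (log2 odds ± SE, adjusted p = 1.74e-11), -1.56 in xct-1 (adjusted p = 0.000266) and adjusted p = 0.0108 between the mutants. The last call was lost without xct-1 replicate 1 or xct-2 replicate 2 (highest edgeR adjusted p = 0.217). In xct-2 XCT::XCT it was back at 10.9%, 25.6% and 19.4%. A further pair of LNK2 sites 37 bases apart stood at 95.1% ± 0.424 in Col-0 and 95.1% ± 2.03 in xct-2 (adjusted p = 0.967). LHY (60.6% ± 4.49 in Col-0, 53.8% ± 6.23 in xct-2, adjusted p = 0.174), PRR3 and RVE8 were among those not called. The median change toward the proximal site was -0.41 in xct-2 over these members (log2 odds), against -0.34 over all 1624 junctions tested.

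Among SR proteins, which bind exonic enhancers, and related splicing regulators, 18 members at 11 5′ sites of 11 genes were tested, and 2 sites were called in xct-2, 1 in xct-1 and none in prl1-2, near the shares of all tested junctions (14.2%, 7.14% and 3.69%). At RS41 (AT5G52040, an SR protein, 3 bases) the proximal site took 20.0%, 20.5% and 35.7% in Col-0, 11.1%, 8.04% and 9.30% in xct-2 (adjusted p = 0.00628) and 5.71%, 6.50% and 9.09% in xct-1 (adjusted p = 0.00112). Neither mutant overlapped Col-0, and xct-2 XCT::XCT was at 22.4%, 30.8% and 15.3%. SR45 (AT1G16610, an SR-like regulator of flowering and stress responses, 21 bases) fell from 77.4%, 79.5% and 80.6% to 69.2%, 67.5% and 44.4% in xct-2 (adjusted p = 0.0444), with the third library far below the others on 18 reads. The SR45 call was lost without any 1 of the 6 libraries (highest edgeR adjusted p = 0.184), and those at RS41 without replicate 2 of the mutant (0.108 in xct-2 and 0.0845 in xct-1). The median change over these members was -0.33 in xct-2. Among factors of 3′ splice site recognition, 4 members of SF1 (AT5G51300) and ATU2AF65A were tested and none was called, a count too small to set beside the background of 14.2% in xct-2, 7.14% in xct-1 and 3.69% in prl1-2, with 98.0% ± 0.657 and 96.2% ± 0.449 proximal use at SF1 in Col-0 and xct-2 (adjusted p = 0.329). Of XCT, PRL1 and the MOS4-associated complex, only SKIP had tested members, 2 at 1 site, with 16.5% ± 5.84 in Col-0 and 9.65% ± 1.35 in prl1-2 (adjusted p = 0.547).

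A second measure set each junction against the other reads of its gene, so that members could be placed beside all junctions of the series. In xct-2, 68 of 2059 members with enough reads were called (3.30%), where 2.5% of all 50590 junctions were called. These include unannotated junctions, and of the 46888 annotated ones alone 769 were called (1.64%), 42 higher and 727 lower. Proximal and distal members moved in opposite directions, with 33 of the 36 called proximal members lower (background 1.48% lower) and 29 of the 32 called distal members higher (background 1.02% higher). Of the annotated junctions that are not members, 691 of the 701 called were lower. In xct-1, 13 members were called (0.631%, background 1.07%), the 7 proximal ones all lower (background 0.34%) and the 6 distal ones all higher (background 0.725%). Of the annotated junctions alone 179 were called (0.382%), 12 higher and 167 lower, so the share of members lay below that of all junctions and above that of annotated ones. In prl1-2, 97 members were called (4.71%, background 9.73%), of which 89 were lower (background 9.55%) and 8 higher (background 0.18%). Lower calls made up 51 of the 57 proximal and 38 of the 40 distal ones, and 4700 of the 4735 called other annotated junctions were lower too. In xct-2 XCT::XCT, 0 members were called (background 0.00198%). With only the 6 libraries compared in the fit these counts were 22 in xct-2, 1 in xct-1 and 50 in prl1-2. Leaving out single libraries gave 38 without Col-0 replicate 1 and 45 without xct-2 replicate 3 in xct-2, and 37 without Col-0 replicate 1, 44 without prl1-2 replicate 1 and 32 without prl1-2 replicate 3 in prl1-2. In xct-1 it gave 5, 7, 7, 8 and 8 without Col-0 replicates 1 and 2 and xct-1 replicates 1 to 3. In the authors' deposited table, which tests the features by a method not given in the sources used here, 84 members had an adjusted p under 0.05 in xct-2, with 41 proximal ones lower and 4 higher, and 36 distal ones higher and 3 lower. In the authors' deposited table this is 4.33% of the members with an adjusted p, against 1.28% of all annotated junctions. Of these 84, 74 were also called by use of the 5′ site. The authors' deposited table lists 26 members for xct-1 (1.36%, against 0.316% of annotated junctions), with 9 proximal ones lower and 1 higher, and 14 distal ones higher and 2 lower. For prl1-2 the authors' deposited table lists 120 members (14.5%, against 13.0%), with 68 proximal and 44 distal ones lower and 4 of each higher. By use of the 5′ site, 26 and 21 of these were also called.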

How the data were processed

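The authors deposited read counts per feature (gene, exon bin, annotated and unannotated junction) for 18 libraries, as whole numbers without normalization per the file headers and values. The deposited comparison tables hold log2 fold changes, and p-values adjusted by the authors. Per the submitters' processing notes, TAIR10 and minimap2 2.17 were used; for other steps the protocol was not given in the sources used here. Coordinates come from a deposited table and introns are written from 1.

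For each junction and library, 2 counts (the junction, and the other annotated junctions of its 5′ site) entered edgeR 4.0.16's quasi-likelihood test with a term per library and a use term per genotype. The 1624 junctions with 20 or more reads, and as many on the alternatives, were fitted together and p-values adjusted by Benjamini-Hochberg, with a threshold of 0.05. The library term makes between-library scaling cancel. SE is the log2 odds divided by the square root of F. Members and gene lists were chosen with earlier results of these data known. Named genes are, per contrast, the 8 largest rises and falls of proximal use in percentage points among called, non-overlapping members, the 5 most-read sites, the gene lists and the 3 least-read members. Gene names come from RefSeq (TAIR10.1, all 1737 genes matched). Replicates are labelled independent biological replicates, and no 2 replicates of a genotype agreed within sampling noise. The lowest chi-square per degree of freedom was 1.68, between xct-1 XCT::SpXAP5 replicates 2 and 3. The highest was 45.1, between xct-1 replicates 2 and 3. Libraries of different genotypes were not compared in this way. The fit was tried on simulated counts with a spread that was set in advance, not estimated from these libraries, and the same at all junctions. The shares that follow hold for that spread and need not hold for the real counts. For xct-2 against Col-0 it called 24.6% of changes of 1 in log2 odds and 63.3% of changes of 2. Of unchanged junctions it called 0.362%. A junction that was not called may therefore still have changed. Alternatives are listed in the closing section.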

Additional observations from a re-analysis of the deposited data

Results flagged for a closer look

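The 2 xct mutants differed from each other in the use of 33 tested members at 18 5′ sites, by a test of the difference itself, although both were compared with the same wild type. At 17 of these sites xct-2 lay further toward the distal acceptor, and over those 17 sites, which the comparison chose, proximal use was 73.5% in Col-0, 62.8% in xct-1 and 49.5% in xct-2.

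Junctions that the annotation does not hold were left out of the main comparisons by use of the 5′ site. At the tested 5′ sites 25 of them were counted, at 23 sites. Their share of the reads was 0.391% ± 0.00917 (SD, n = 3) in Col-0, and in 4 genotypes every library was above every Col-0 library. The highest was prl1-2, at 0.527%. It stood at 0.447% in xct-2, and the transgenic genotypes had 0.440% (XCT::XCT) and 0.432% (XCT::SpXAP5). The xct-1 libraries, at 0.477%, 0.365% and 0.420%, overlapped Col-0. No test was made of these shares, and the genotype labelled as carrying XCT::XCT was among those above Col-0.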

How the results depend on the processing

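DESeq2 called fewer members than edgeR, with 131 in xct-2, 49 in xct-1, 20 in prl1-2, 0 in xct-2 XCT::XCT against Col-0, 154 in xct-2 XCT::XCT against xct-2 and 6 in xct-2 against xct-1. All of these were also called by edgeR. The cause of the lower counts was not tested. With 1 read as the minimum, 2 members were called in xct-2 XCT::XCT against Col-0. The other minimums (10 and 50 reads), unannotated junctions in the denominator, the fit of the 6 libraries and pairs in the same exon kept each count of members called by use of the 5′ site within 1.5 times, and no member called by edgeR changed sign under the refits.

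Leaving out 1 library gave 168 to 213 members in xct-2, 68 to 96 in xct-1, 27 to 58 in prl1-2, 0 to 4 in xct-2 XCT::XCT against Col-0, 194 to 217 against xct-2, 0 in xct-1 XCT::SpXAP5 and 20 to 28 in xct-2 against xct-1. With the gene as denominator the ranges were 38 to 57, 5 to 10, 32 to 77 and 0 to 1 for the first 4, and the fit of the 6 libraries gave 22, 1 and 50 for xct-2, xct-1 and prl1-2. Of 126 calls at named members, 69 held without any single library, a check added after seeing the data.

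Mean proximal use differed from Col-0 by -3.66 points in xct-2, and by -4.20 with reads summed over sites and -4.05 in same-exon pairs. For xct-1 XCT::SpXAP5 it was -2.05, and -1.44 with reads summed. Leaving out 1 library gave -3.73 to -3.54 in xct-2, -2.17 to -1.70 in xct-1, 0.61 to 1.11 in prl1-2, 0.31 to 0.86 in xct-2 XCT::XCT and -2.24 to -1.83 in xct-1 XCT::SpXAP5.

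Genotypes share replicate numbers. Correlations between same-numbered libraries in their deviations of acceptor use were weak (45 correlations from -0.16 to 0.163, 3 of them over 0.1). Between xct-1 and xct-2 they were above 0 at every number (0.0669, 0.0828 and 0.0667). Between xct-2 and xct-2 XCT::XCT they were below 0 at every number (-0.14, -0.16 and -0.0938). Weak correlations of such noisy values cannot exclude a shared batch. In Col-0, xct-1, xct-2 and prl1-2, replicate 2 had the fewest junction reads per gene read (7.83, 6.95, 7.42 and 7.74). In the transgenic genotypes it did not (10.8 in each). Whether replicate numbers mark batches was not tested. With the replicate block 224, 101, 53, 4, 234, 0 and 33 members were called in the 7 contrasts, in the order xct-2, xct-1, prl1-2 and xct-2 XCT::XCT against Col-0, xct-2 XCT::XCT against xct-2, xct-1 XCT::SpXAP5 against xct-1 and xct-2 against xct-1. With the gene as denominator the block gave 61, 10, 97 and 0. Another scaling does not apply, since each library has its own term. Depth limits the rest: 654 members had 1 to 19 reads on the alternatives.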
